A study of Homo sapiens with 12 samples.

Results

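The genes described here are 35 genes of fatty acid oxidation and of the PPAR receptors, among the 54628 gene symbols counted in OCI-AML3 cells. They were chosen by name, from lists of fatty acid activation, the carnitine shuttle, mitochondrial and peroxisomal beta oxidation and the PPAR regulators. The rule used no measured values, but earlier results of these data were known when the genes were chosen. OCI-AML3 is an established human acute myeloid leukaemia line. Poly(A) RNA was sequenced as paired ends after 24 h in 4 groups of 3 libraries: DMSO, the solvent control; ABT199 (venetoclax), an inhibitor of the survival protein BCL2; ERKi (compound 27), an inhibitor of the ERK kinases; and Comb, ABT199 and ERKi together. All 4 groups are the same line without a stated genetic change, and the sources used here give no doses. The labels do not say that replicates came from separate cultures, so p-values measure the spread between these libraries, which may be technical.

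Fatty acids are burned for energy in a fixed order of steps. ACSL enzymes join a fatty acid to coenzyme A, the CPT enzymes pass long chains into mitochondria on carnitine, and a repeating cycle of oxidation, hydration, oxidation and cleavage then shortens the chain and hands electrons to the respiratory chain through the electron transfer flavoprotein. PPARA, PPARD and PPARG are nuclear receptors that bind fatty acids and, with an RXR partner, switch on many of these genes; PPARGC1A and PPARGC1B are their coactivators. Fatty acid oxidation is known as a fuel route in leukaemia cells, and PPARG is known as a gene of monocytes and macrophages.

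All 35 genes were in the table, and 32 passed the filter on low counts. The 3 that did not were CPT1C, the CPT1 form known from brain, with 0 to 7 counts per library; ACAD11, with 0 in all 12; and PPARGC1A, with 1 count in ERKi replicate 1 and 0 in the other 11. Levels are given as CPM, the counts scaled to the library size with TMM factors. A change was called where the adjusted p was below 0.05 in edgeR's quasi-likelihood test, with Benjamini-Hochberg adjustment over all 15173 genes tested. CPT1B shares 66.4% of its exon bases with the read-through gene CHKB-CPT1B, listed at 0. Whether reads from such shared bases were left uncounted was not tested.

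Per kilobase of exon, the highest of the 35 with DMSO was HADHA, the alpha subunit of the trifunctional protein of long-chain oxidation, at 128 ± 4.68 CPM per kb (SD, n = 3). ECHS1, the short-chain hydratase, followed at 67.3 ± 4.22. The medium-chain dehydrogenase ACADM at 58.4 ± 2.38 and the very-long-chain dehydrogenase ACADVL at 57.3 ± 6.91 came next and did not differ from each other beyond their spread. At the low end, CPT1A was at 1.34 ± 0.10 and PPARA at 1.33 ± 0.0779, again within their spread of each other, while the carnitine importer SLC22A5 was at 0.179 ± 0.0539. With the combination the order began with HADHA (171 ± 5.35), ACADVL (85.2 ± 2.18) and HADHB (73.1 ± 2.28), ahead of ECHS1 (57.2 ± 3.17).

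Library totals ran from 19199296 to 21275065 counts. One library, DMSO replicate 1, differed more than others of its group: over the tested genes, chi-square divided by its degrees of freedom was 17.11 and 16.17 for its 2 replicate pairs and 2.303 to 5.322 for all others. All 11 markers of the labelled myeloid line passed the filter. Their summed level was 1368 to 1411 CPM with DMSO, 1293 to 1328 with ABT199, 4503 to 4654 with ERKi and 5902 to 6130 with the combination, and LYZ was the largest of them in the ERKi libraries at 2361 to 2513 CPM. With ERKi 9 of the 11 rose and 2 fell, beside 34.5% and 35.2% of all genes tested. MPO, the granule enzyme, was low throughout at 0.853 to 3.41 CPM. This myeloid change moved with the ERKi results below, and its part in them was not tested; in bulk RNA, fewer cells of a type and less RNA per cell cannot be told apart.

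ABT199 alone against DMSO asked what BCL2 inhibition does by itself, and 0 of the 32 genes were called in either direction by edgeR, by DESeq2 or by limma-voom. Over all genes tested, 0.0198% were called higher and 0.382% lower, and the median of the 32 was 0.04 on the log2 scale against 0.00 for all genes. For 30 of the 32 the 95% interval of the difference lay within a 1.5-fold change either way. The exceptions, CPT1B (-1.02 to 1.15 on the log2 scale) and SLC22A5 (-0.72 to 0.31), had few counts. At an unadjusted p under 0.05 there were 4 of the 32, ACSL3, ACSL4, ETFA and HSD17B4, beside 9.11% of all genes. ACSL4 had the largest difference of the 4, 0.17 (SE 0.0662, adjusted p = 0.465).

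ERKi alone moved most of these genes, in both directions. Of the 32, 12 rose (37.5%) and 15 fell (46.9%), beside 34.5% and 35.2% of all genes tested, so changes were the rule across the transcriptome too; the difference between these shares was not tested. The median was -0.08 on the log2 scale, against 0.01 for all genes. Genes that rose included PPARG, CPT1A, PPARA, ACAD10 and HADHB, and those that fell included the activating enzymes ACSL1, ACSL3 and ACSL4, the dehydrogenase ACAD9 and the coactivator PPARGC1B. Without DMSO replicate 1, 13 rose and 16 fell. With the combination against DMSO the counts were again 12 and 15, beside 30.4% and 33.4% of all genes, and the median was -0.13 against -0.01; without DMSO replicate 1 these were 13 and 16.

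**Figure D1:**
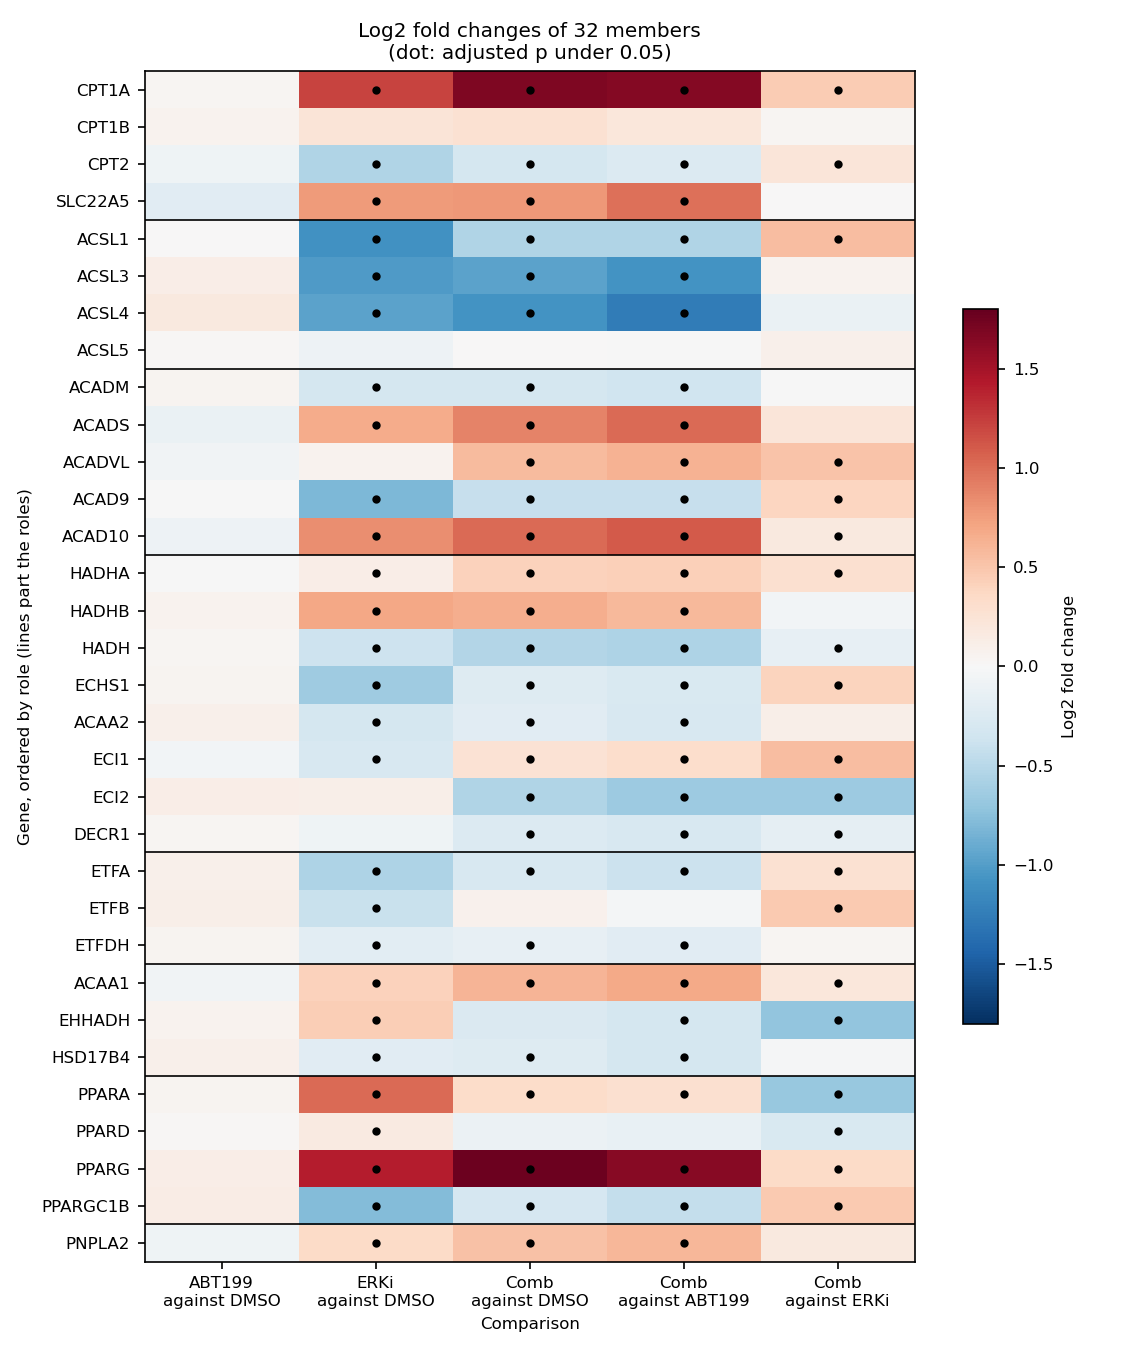
Log2 fold change (colour) of the 32 genes that passed the filter, one row per gene in order of role with lines between roles, in 5 comparisons (columns); dots mark an adjusted p under 0.05. The ABT199 column holds no dot, and the ERKi and combination columns hold rises (CPT1A, PPARG, ACAD10) and falls (ACSL3, ACSL4) side by side.

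CPT1A and PPARG had the largest rises of the 32 with the combination and ACSL4 the largest fall, and ACAD10 rose too, so the 300 bases around their start sites are printed here (250 before and 50 after the start, RefSeq, GRCh38.p14, 5′ to 3′ on the gene's strand). Capitals mark AGGTCA, the core motif of PPARs and many other nuclear receptors, on either strand (TGACCT where it lies on the opposite strand). CPT1A is at chr11:68844228-68844527 on the minus strand, PPARG at chr3:12287118-12287417 on the plus strand (the first of its 6 windows), ACAD10 at chr12:111685803-111686102 on the plus strand and ACSL4 at chrX:109733208-109733507 on the minus strand.
CPT1A: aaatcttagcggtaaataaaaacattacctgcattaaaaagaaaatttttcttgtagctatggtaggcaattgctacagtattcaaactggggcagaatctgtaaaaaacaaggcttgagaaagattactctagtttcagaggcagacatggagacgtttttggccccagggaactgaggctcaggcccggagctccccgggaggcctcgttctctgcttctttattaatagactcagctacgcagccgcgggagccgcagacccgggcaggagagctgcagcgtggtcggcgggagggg
PPARG: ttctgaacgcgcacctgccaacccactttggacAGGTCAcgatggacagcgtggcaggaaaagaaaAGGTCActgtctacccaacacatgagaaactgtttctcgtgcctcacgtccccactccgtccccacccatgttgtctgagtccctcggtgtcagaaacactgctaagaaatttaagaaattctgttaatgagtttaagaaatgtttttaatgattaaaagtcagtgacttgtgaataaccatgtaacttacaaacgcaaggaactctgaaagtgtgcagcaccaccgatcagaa
ACAD10: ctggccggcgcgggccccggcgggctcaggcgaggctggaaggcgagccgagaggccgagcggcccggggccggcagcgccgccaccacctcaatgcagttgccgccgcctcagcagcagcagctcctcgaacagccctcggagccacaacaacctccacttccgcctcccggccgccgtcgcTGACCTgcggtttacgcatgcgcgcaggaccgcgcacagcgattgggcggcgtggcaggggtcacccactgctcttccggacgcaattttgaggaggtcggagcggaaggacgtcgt
ACSL4: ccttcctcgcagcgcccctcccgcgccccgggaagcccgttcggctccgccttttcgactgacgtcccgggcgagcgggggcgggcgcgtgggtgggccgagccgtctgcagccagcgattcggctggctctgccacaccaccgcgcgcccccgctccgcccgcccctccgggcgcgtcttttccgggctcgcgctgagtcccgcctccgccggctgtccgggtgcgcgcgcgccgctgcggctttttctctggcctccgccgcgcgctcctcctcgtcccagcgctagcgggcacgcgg
The PPARG window holds the core motif at 2 places, beginning 217 and 184 bases before the start, ACAD10 holds it at 1 place on the opposite strand 67 bases before it, and the other windows shown hold none. Promoter windows were found for 29 of the 35 genes, 47 windows in all. The core motif was in 6 of the 47 (12.8%), in ACAD10, ACSL5, PNPLA2 and PPARG, and in 13.8% of all 35116 promoter windows. Windows of the same gene can overlap. The PPARG windows chr3:12288810-12289109 and chr3:12288820-12289119 hold the same site, which is counted in both. Searched on both strands, the full PPAR-RXR element (the core motif repeated in the same direction after 1 base) was in 0 of the 47 and in 0.0228% of all windows. The ERR element TCAAGGTCA, which also contains the core motif, was in 0 of the 47 and in 0.353% of all. The windows differ in base composition, with 50% G and C for CPT1A, 45% for PPARG, 71.7% for ACAD10 and 77.7% for ACSL4. A match is a description of these letters, not evidence of binding.

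The carnitine shuttle split with ERKi: its entry enzyme CPT1A and the carnitine importer SLC22A5 rose and the inner membrane enzyme CPT2 fell, while CPT1B, the muscle form, was not called. CPT1A, the rate-limiting step of mitochondrial import in most tissues (chr11:68754620-68844410, GRCh38), was at 9.42, 8.76 and 8.11 CPM in the DMSO libraries, 8.04, 9.84 and 9.03 with ABT199, 20.6, 20.4 and 20.2 with ERKi and 29.9, 25.1 and 29.1 with the combination. The DMSO and ABT199 libraries overlapped, every ERKi library lay above both, and every combination library lay above every ERKi library. CPT1A rose 2.32-fold with ERKi (log2 fold change 1.22, SE 0.0945, adjusted p = 5.14e-09) and 3.202-fold with the combination (log2 fold change 1.68, SE 0.0938, adjusted p = 1.39e-10), in 3 of 3 libraries each. The step from ERKi to the combination was 1.38-fold (adjusted p = 0.000341).

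CPT2, which returns the imported chain to coenzyme A, was at 75.6, 67.5 and 67.01 CPM with DMSO and 66.5, 67.4 and 65.8 with ABT199. It was at 49.6, 48.7 and 46.2 with ERKi and 55.9, 53.5 and 58.5 with the combination, so that the combination lay between ERKi and the other groups with no overlap. CPT2 fell with ERKi (log2 fold change -0.54, SE 0.0569, adjusted p = 2.45e-07) and with the combination (log2 fold change -0.32, SE 0.0567, adjusted p = 1e-04), and was 1.16-fold higher with the combination than with ERKi alone (adjusted p = 0.00485). SLC22A5, at only 1.51 to 2.803 CPM without ERKi, was at 3.59 to 4.302 with it (log2 fold change 0.77, SE 0.209, adjusted p = 0.00354). CPT1B was at 0.349 to 0.947 CPM over all 12 libraries, and the 95% interval of its ERKi difference, -0.82 to 1.29 on the log2 scale, includes changes as large as that of SLC22A5.

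In fatty acid activation 3 genes fell with ERKi and none rose: ACSL1, ACSL3 and ACSL4 fell, and ACSL5 was not called (-0.09, adjusted p = 0.141). Over all genes tested 35.2% fell with ERKi and 34.5% rose. ACSL1, the long-chain acyl-CoA synthetase of oxidation and storage (chr4:184755595-184826818), was at 259, 294 and 287 CPM with DMSO, 279, 282 and 281 with ABT199, 133, 131 and 130.0 with ERKi and 184, 197 and 199 with the combination. The 3 ERKi libraries were the lowest and close together, and the combination libraries lay between them and the rest. ACSL1 fell 2.13-fold with ERKi (log2 fold change -1.09, SE 0.0502, adjusted p = 5.93e-12) and 1.45-fold with the combination (log2 fold change -0.54, SE 0.0495, adjusted p = 7.07e-08). From ERKi to the combination it rose by 0.56 (adjusted p = 1.95e-07).

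ACSL3, a synthetase of lipid droplets and the endoplasmic reticulum, was at 135, 150.5 and 152 CPM with DMSO, 157, 156 and 161 with ABT199, 73.3, 71.96 and 70.5 with ERKi and 73.8, 74.7 and 76.2 with the combination. Both groups with ERKi lay at about the same low level. ACSL3 fell with ERKi (log2 fold change -1.02, SE 0.0506, adjusted p = 1.6e-11) and with the combination (log2 fold change -0.96, SE 0.0507, adjusted p = 6.84e-11), and combination and ERKi did not pass the test against each other (0.06, 95% interval -0.06 to 0.18). ACSL4, which prefers arachidonic acid and is known for its part in lipid peroxidation (chrX:109624244-109733403), was at 128, 161 and 148 with DMSO, 166, 163 and 162 with ABT199, 73.3, 78.4 and 72.4 with ERKi and 65.6, 71.1 and 69.4 with the combination. Its highest libraries were those with ABT199 and its lowest those with the combination. ACSL4 fell with ERKi (log2 fold change -0.96, SE 0.0681, adjusted p = 1.56e-09), and the fall from ABT199 to the combination was the largest of any of the 32 genes in the 5 comparisons between 2 groups (log2 fold change -1.25, SE 0.0689, adjusted p = 9.65e-11).

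**Figure D2:**
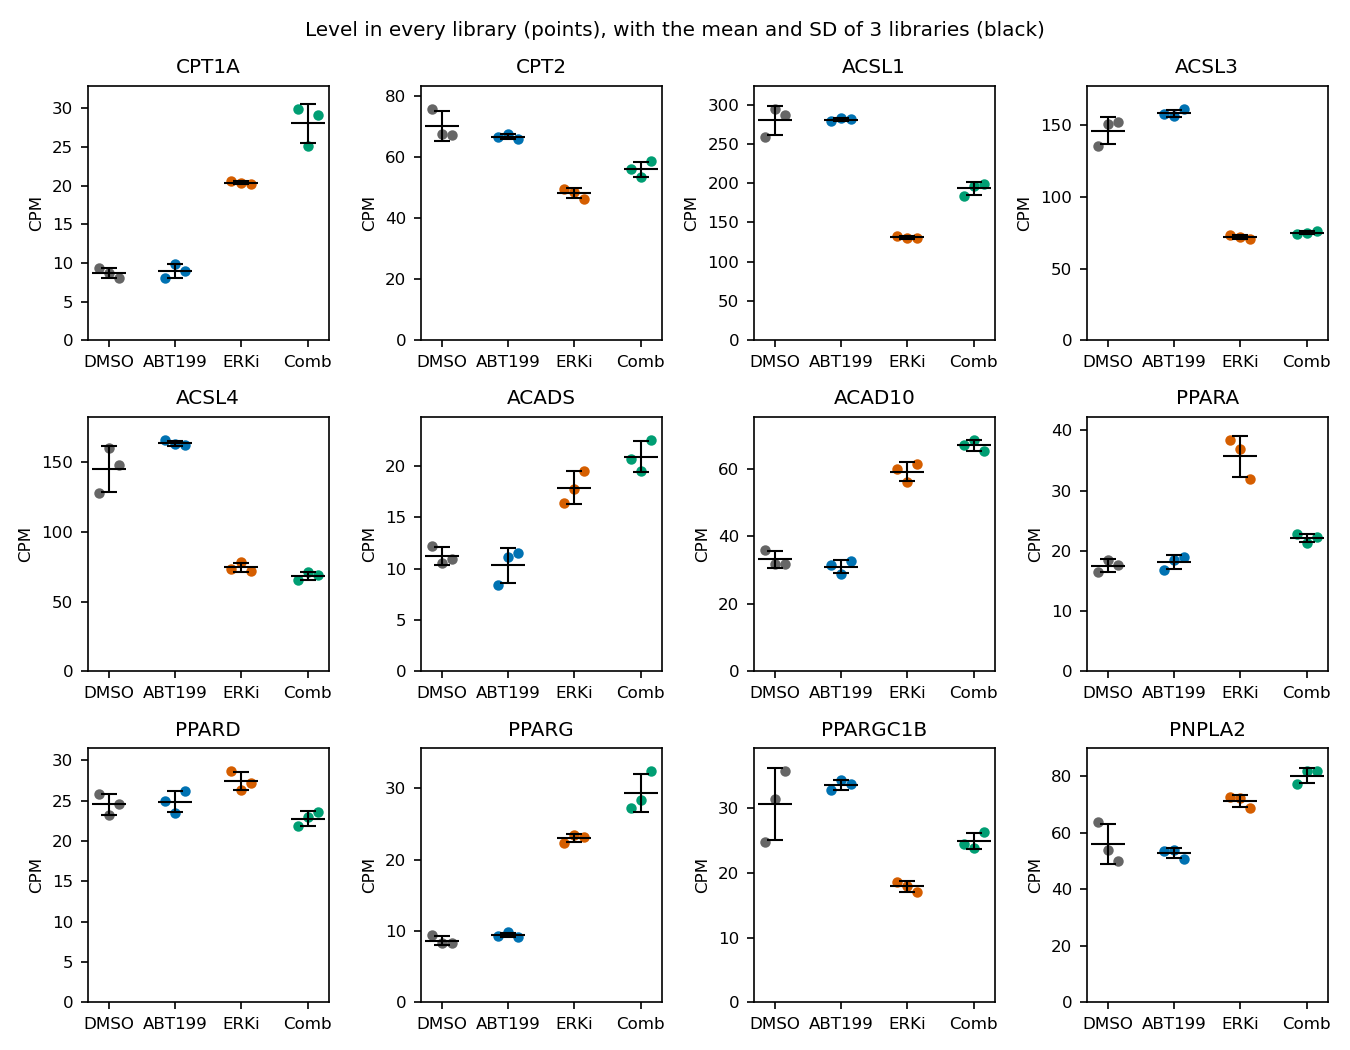
CPM (vertical axis, from 0) of 12 genes in each of the 12 libraries, by group (horizontal axis); points are libraries and black bars the mean and SD of 3. CPT1A and PPARG step up from DMSO to ERKi to the combination, ACSL3 and ACSL4 are low in both groups with ERKi, and PPARA is highest with ERKi alone, at 31.9 to 38.4 CPM.

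Among the mitochondrial acyl-CoA dehydrogenases, which take the first oxidation step, ERKi raised ACADS and ACAD10, lowered ACADM and ACAD9, and left ACADVL uncalled. ACAD10, whose enzyme is thought to act on unusual long or branched chains (chr12:111686056-111757107), was at 35.95, 31.7 and 31.7 CPM with DMSO, 31.5, 28.9 and 32.6 with ABT199, 59.97, 55.98 and 61.4 with ERKi and 67.1, 68.4 and 65.2 with the combination. The groups with ERKi lay above all others without overlap. ACAD10 rose 1.79-fold with ERKi (log2 fold change 0.84, SE 0.0631, adjusted p = 3.54e-09) and 2.02-fold with the combination (log2 fold change 1.01, SE 0.0631, adjusted p = 5.31e-10). ACADS, the short-chain dehydrogenase, was at 12.2, 10.5 and 10.9 with DMSO, 8.38, 11.1 and 11.5 with ABT199, 16.4, 17.7 and 19.6 with ERKi and 20.7, 19.6 and 22.5 with the combination. The ERKi and combination libraries touched (19.6 CPM in each), and both lay above the rest. ACADS rose with ERKi (log2 fold change 0.67, SE 0.113, adjusted p = 4.83e-05) and by 1.02 from ABT199 to the combination (adjusted p = 6.16e-07).

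ACADVL, the dehydrogenase of very long chains, was higher with the combination and not called with either drug alone. It was at 315, 248 and 273 CPM with DMSO, 259.8, 277 and 268 with ABT199, 299, 279 and 294 with ERKi and 409.5, 426 and 407 with the combination, so that only the combination libraries lay apart from the overlapping others. ACADVL was at 0.06 with ERKi (adjusted p = 0.402) and rose by 0.57 with the combination (SE 0.0646, adjusted p = 7.96e-07). Without DMSO replicate 1 the ERKi difference was 0.15 and called (adjusted p = 0.00309), and with total counts as the scale it was 0.15 (0.0364). ACAD9, also an assembly factor of respiratory complex I, lay at 40.3 to 46.4 CPM with DMSO, 23.6 to 25.8 with ERKi (log2 fold change -0.81, SE 0.0619, adjusted p = 4.12e-09) and 32.4 to 32.6 with the combination. ACADM, the medium-chain enzyme, lay at 266 to 287 CPM with DMSO and 219.8 to 231 in both groups with ERKi, and fell by 0.31 with ERKi and by 0.32 with the combination.

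Of the 8 genes of the later steps, ERKi raised HADHA and HADHB and lowered HADH, ECHS1, ACAA2 and ECI1, with ECI2 and DECR1 uncalled. Beside them, 34.5% of all genes tested rose with ERKi and 35.2% fell. HADHA and HADHB encode the 2 subunits of the trifunctional protein and lie head to head on chromosome 2. HADHB was at 199 to 213 CPM without ERKi, 312 to 332 with ERKi and 303 to 322 with the combination, a rise of 0.70 with ERKi (SE 0.0411, adjusted p = 1.48e-10). HADHA was at 546 to 585 CPM with DMSO, 606 to 623 with ERKi and 734 to 776 with the combination. Its ERKi difference was small (0.12, adjusted p = 0.0152) and was no longer called without DMSO replicate 2 (adjusted p = 0.0621), DMSO replicate 3 (0.0886) or ERKi replicate 2 (0.0671), with no filter (0.151) and with only the 6 libraries compared (0.0588). With total counts as the scale it was 0.21 (adjusted p = 0.000112). The rise of HADHA with the combination was larger (log2 fold change 0.41, SE 0.0422, adjusted p = 2.24e-07).

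ECHS1, the hydratase, lay at 104 to 117 CPM with DMSO, 67.8 to 72.8 with ERKi (log2 fold change -0.63, SE 0.0561, adjusted p = 2.73e-08) and 86.6 to 95.8 with the combination. ECI1, the isomerase for unsaturated chains, moved opposite ways: 22.4 to 25.8 CPM with DMSO, 18.2 to 20.04 with ERKi and 26.4 to 31.1 with the combination. It fell by 0.29 with ERKi (adjusted p = 0.00385) and rose by 0.26 with the combination (adjusted p = 0.00764, 0.0614 without combination replicate 2). The second isomerase, ECI2, was at 5.59 to 7.36 CPM in the first 3 groups and at 3.54 to 5.31 with the combination, a fall of 0.54 against DMSO (SE 0.163, adjusted p = 0.00848); it shares 27.1% of its exon bases with C6orf201 on the opposite strand. HADH, the short-chain hydroxyacyl dehydrogenase, fell by 0.38 and 0.52 with ERKi and the combination, the thiolase ACAA2 by 0.31 and 0.21, and DECR1, the dienoyl reductase, was at -0.08 with ERKi and fell by 0.25 with the combination (adjusted p = 0.000126).

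The 3 genes that carry electrons from the dehydrogenases all fell with ERKi, beside 35.2% of all genes tested. ETFA, a subunit of the electron transfer flavoprotein, lay at 213 to 216 CPM with DMSO and 140.2 to 149 with ERKi (log2 fold change -0.56, SE 0.0423, adjusted p = 3.49e-09), and at 172 to 179 with the combination. ETFB, its partner subunit, fell by 0.40 with ERKi (adjusted p = 0.000269) and was at 48.6 to 58.7 CPM with the combination, overlapping the 47.1 to 58.3 of DMSO (0.08, adjusted p = 0.387). Without DMSO replicate 1 the combination difference of ETFB was 0.18 and called (adjusted p = 0.015). ETFDH, which passes the electrons to ubiquinone, fell by 0.19 with ERKi (adjusted p = 0.00625), at -0.10 and not called with total counts as the scale (0.113). Its fall with the combination, 0.15, was not called when leaving out DMSO replicate 3 (adjusted p = 0.0571) or combination replicate 2 (0.124), by DESeq2 (0.09), with no filter (0.125) and with only the libraries compared (0.107).

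Peroxisomes shorten chains too long for mitochondria. ACAA1, their thiolase, lay at 24.3 to 28.6 CPM with DMSO, 34.3 to 36.9 with ERKi (log2 fold change 0.42, SE 0.0664, adjusted p = 2.98e-05) and 40.99 to 41.3 with the combination, where it was the highest; 19.7% of its exon bases are shared with DLEC1 (2 to 19 counts). EHHADH, the bifunctional enzyme of the classical peroxisomal route, was at 8.17 to 11.7 CPM with DMSO, 13.7 to 14.7 with ERKi and 7.89 to 9.43 with the combination. The combination libraries lay below every ERKi library. EHHADH rose by 0.45 with ERKi (SE 0.125, adjusted p = 0.00426; 0.29 without DMSO replicate 1). Against DMSO the combination was at -0.26 and not called (adjusted p = 0.0905), but -0.41 and called without DMSO replicate 1 (0.00264). HSD17B4, the other bifunctional enzyme, fell by 0.21 with ERKi and 0.23 with the combination.

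With ERKi PPARG and PPARA rose more than 2-fold, PPARD was slightly higher, and the coactivator PPARGC1B fell. PPARG, best known from fat cells and macrophages (chr3:12287368-12434356), was at 9.42, 8.29 and 8.25 CPM with DMSO, 9.33, 9.79 and 9.17 with ABT199, 22.4, 23.5 and 23.2 with ERKi and 27.3, 28.3 and 32.4 with the combination. Its libraries with ERKi lay well above those without, and the combination lay above ERKi alone. PPARG rose 2.66-fold with ERKi (log2 fold change 1.41, SE 0.08597, adjusted p = 2.26e-10) and 3.39-fold with the combination (log2 fold change 1.76, SE 0.0856, adjusted p = 2.47e-11), with a step of 0.35 between them (adjusted p = 0.00147; 0.23, adjusted p = 0.0197, with total counts as the scale). The adipocyte markers ADIPOQ, LEP and FABP4 were at 0 in all 12 libraries, and the 6 adipocyte markers summed to 0.986 to 2.66 CPM, with single values of up to 53 counts. Of these 6, 2 passed the filter, and with ERKi 1 rose (1.70) and 1 fell (-1.37), beside 34.5% and 35.2% of all genes tested. With the combination against DMSO 1 of the 2 was called, and it was lower (-1.03). Of other tissues that use PPARs, 1 of 5 hepatocyte markers (TTR) and 3 of 6 muscle markers (MYH6, MYH7 and TNNT2) were also at 0 in all 12. The 5 hepatocyte markers summed to 5.09 to 9.56 CPM, with single values of up to 197 counts. The 6 muscle markers summed to 0.326 to 0.962 CPM, with single values of up to 18 counts.

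PPARA, the receptor of fasting and liver fat burning (chr22:46150521-46243756), took another course. It was at 16.4, 18.5 and 17.7 CPM with DMSO, 16.8, 18.5 and 19.04 with ABT199, 38.4, 36.9 and 31.9 with ERKi and 22.8, 21.3 and 22.3 with the combination. ERKi alone gave the highest libraries, and the combination lay only a little above DMSO, without overlap. PPARA rose 2.03-fold with ERKi (log2 fold change 1.02, SE 0.0802, adjusted p = 5.73e-09), was 1.26-fold above DMSO with the combination (adjusted p = 0.00202), and fell 1.61-fold from ERKi to the combination (log2 fold change -0.69, SE 0.0792, adjusted p = 2.67e-06).

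PPARD, the widely expressed receptor, was at 25.9, 23.2 and 24.6 CPM with DMSO, 24.96, 23.5 and 26.1 with ABT199, 28.7, 26.4 and 27.2 with ERKi and 21.8, 22.97 and 23.6 with the combination. The ERKi libraries were the highest by a small margin. The ERKi difference (log2 fold change 0.16, SE 0.0675, adjusted p = 0.0442) was no longer called when leaving out DMSO replicate 2 (adjusted p = 0.19), DMSO replicate 3 (0.0982), ERKi replicate 1 (0.185) or ERKi replicate 3 (0.0788). It was also lost by DESeq2 (0.0998), with no filter (0.215) and with only the libraries compared (0.0886), and was 0.25 with total counts as the scale. PPARD fell by 0.27 from ERKi to the combination (SE 0.0683, adjusted p = 0.00375).

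PPARGC1B, a coactivator of the PPAR and ERR receptors that drives mitochondrial genes, was at 24.8, 31.4 and 35.8 CPM with DMSO, 32.8, 34.3 and 33.7 with ABT199, 18.7, 18.1 and 17.05 with ERKi and 24.5, 23.9 and 26.4 with the combination. The ERKi libraries were the lowest, and DMSO replicate 1 reached into the range of the combination. PPARGC1B fell 1.71-fold with ERKi (log2 fold change -0.77, SE 0.101, adjusted p = 3.17e-06). Its fall with the combination, 0.30, was no longer called when leaving out DMSO replicate 3 (-0.18, adjusted p = 0.107) or combination replicate 2 (0.0536) and with only the libraries compared (0.0686). Over all alternatives the log2 fold change of PPARGC1B with the combination ran from -0.43 to -0.18, with adjusted p from 1.58e-05 to 0.107.

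PNPLA2, the triglyceride lipase that frees fatty acids from lipid droplets, was at 63.9, 53.9 and 50.1 CPM with DMSO, 53.7, 54.1 and 50.8 with ABT199, 72.6, 72.5 and 68.8 with ERKi and 77.2, 81.9 and 81.8 with the combination. Libraries with ERKi lay above those without, and those of the combination were the highest. PNPLA2 rose by 0.35 with ERKi (SE 0.0709, adjusted p = 0.00033) and by 0.52 with the combination (adjusted p = 6.69e-06). The step between them, 0.17, had an adjusted p of 0.0502, and over the alternatives it ran from 0.05 to 0.20, with adjusted p from 0.00511 to 0.556. It was called, among others, with RLE size factors (0.036) and by DESeq2 (0.0397), and was smallest with total counts as the scale (0.05, 0.556).

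The effect of ERKi could be measured in 2 settings, without venetoclax (ERKi against DMSO) and with it (combination against ABT199), in libraries that the comparisons do not share. With venetoclax present, 12 of the 32 rose (37.5%) and 16 fell (50%), beside 32.1% and 34.2% of all genes, with a median of -0.17 against 0.00 for all genes. In both settings 25 were called, 23 of them in the same direction (10 higher, 13 lower). Of the 32 genes 78.1% were thus called in both settings and 71.9% in the same direction, beside 52.8% and 49.4% of all genes tested; the difference between these shares was not tested. ECI1 and EHHADH were called in opposite directions. ECI1 was at -0.29 without and 0.31 with venetoclax. EHHADH was at 0.45 and -0.32, and its second value lost its call without ABT199 replicate 1 (adjusted p = 0.0505), ABT199 replicate 2 (0.138), combination replicate 1 (0.154) or combination replicate 2 (0.065), with RLE size factors (0.05), by DESeq2 (0.0723) and with no filter (0.053). ETFB and PPARD were called only without venetoclax, ACADVL, ECI2 and DECR1 only with it, and CPT1B and ACSL5 in neither; the test of each difference is given with the interaction below.

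**Figure D3:**
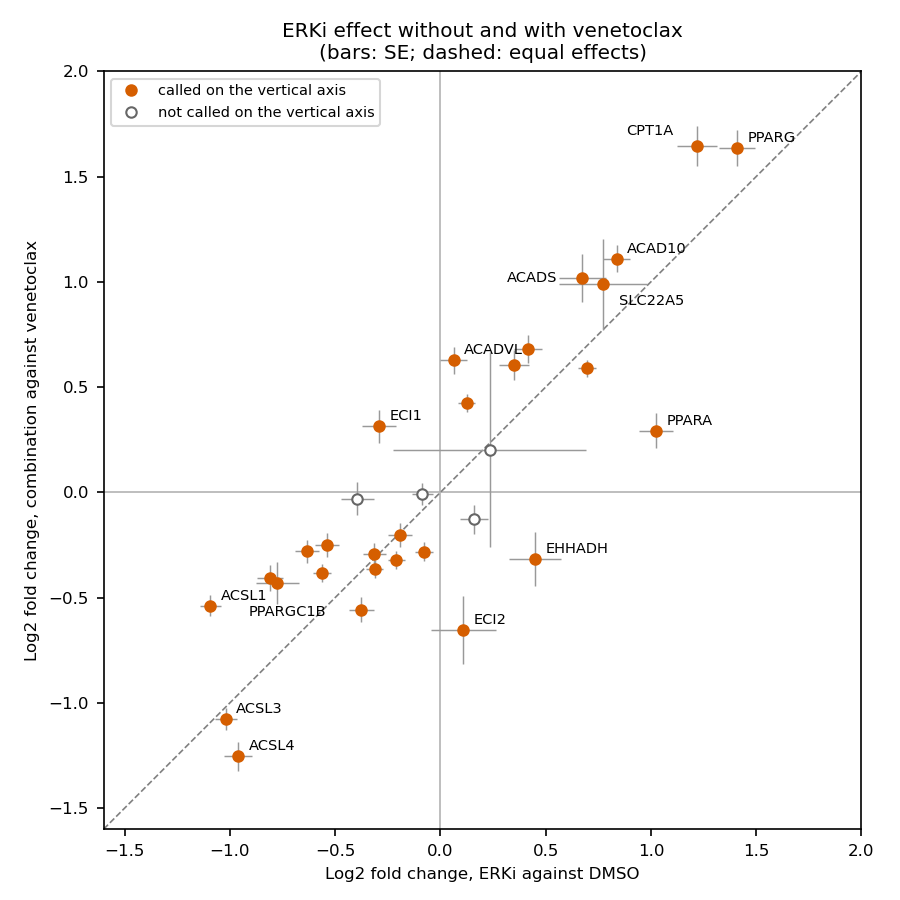
Log2 fold change of ERKi without venetoclax (horizontal) and with it (vertical) for the 32 genes, with SE bars; the dashed line marks equal effects and filled points are called on the vertical axis. The genes run from ACSL4 at the lower left to CPT1A and PPARG at the upper right. PPARA, EHHADH and ECI2 lie farthest below the line and ECI1, ACADVL and ACSL1 farthest above. The vertical distance from the line is the interaction, which was called for 18 of the 32 genes.

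Venetoclax on top of ERKi (combination against ERKi) asked what BCL2 inhibition adds once ERK is blocked. Here 14 of the 32 rose (43.8%) and 6 fell (18.8%), beside 26.5% and 24.3% of all genes, with a median of 0.14 against 0.00. With total counts as the scale, which moved the median of all genes by -0.12 in this comparison, 11 rose and 10 fell, beside 2763 and 5181 of all 15173 genes. The rises of at least 0.51 were ECI1 (0.56), ACSL1 (0.56) and ACADVL (0.51), and the largest falls EHHADH (-0.71), PPARA (-0.69) and ECI2 (-0.65). PPARGC1B (0.48), ETFB (0.47), CPT1A (0.46), ECHS1 (0.40), ACAD9 (0.39), PPARG (0.35), HADHA (0.29), ETFA (0.27) and CPT2 (0.22) rose as well. Several of these, among them ACSL1, ACAD9, ECHS1, ETFB and PPARGC1B, had fallen with ERKi alone, while CPT1A, PPARG and HADHA had risen; these comparisons share the ERKi libraries.

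Some smaller differences between the combination and ERKi lost their call in fits without 1 library, while their size changed little. In those fits HADH was at -0.16 to -0.12, ACAD10 at 0.14 to 0.17 and ACAA1 at 0.17 to 0.19. HADH (-0.15, adjusted p = 0.0459) lost its call without ERKi replicate 1 (adjusted p = 0.0855), 2 (0.146) or 3 (0.0605) and without combination replicate 1 (0.0831) or 3 (0.145). ACAD10 (0.18, adjusted p = 0.022) lost it without ERKi replicate 2 (0.103) or combination replicate 1 (0.0685) or 2 (0.113). ACAA1 (0.20, adjusted p = 0.0174) lost it without ERKi replicate 3 (0.0774) or combination replicate 2 (0.0615) or 3 (0.0615). With total counts as the scale ACAD10 was at 0.05, ACAA1 at 0.08 and CPT2 at 0.09, none of them called. DECR1 and PPARD fell from ERKi to the combination by 0.17 and 0.27. Transcripts listed as fibroblast markers also moved in this comparison. Of the 6 markers 4 passed the filter, and 3 of these fell, beside 24.3% of all genes, while the other was at -0.05 and not called. The 6 markers summed to 6.23 to 35.04 CPM with DMSO, 13.2 to 24.4 with ABT199, 10.4 to 25.2 with ERKi and 2.10 to 2.48 with the combination. Their part in these results was not tested.

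The interaction, the venetoclax effect with ERKi minus that without it, was called for 18 of the 32, 12 higher and 6 lower, beside 21.3% and 18% of all genes, with a median of 0.20 against 0.01. With total counts as the scale, which moved the median of all genes by -0.11, there were 6 higher and 10 lower, beside 2334 and 3765 of all genes. For 9 genes the call held under every alternative run: ACSL1 (0.55), ACADVL (0.57), ACAD9 (0.40), HADHA (0.30), ECHS1 (0.35) and ECI1 (0.61) were higher, and ECI2 (-0.76), EHHADH (-0.76) and PPARA (-0.73) lower than the sum of the single effects on the log2 scale. PPARA had the smallest adjusted p of the 3 lower genes (SE 0.115, adjusted p = 0.00014) and ACSL1 that of the higher (SE 0.0702, adjusted p = 1.94e-05). The interaction of PPARG (0.22, 95% interval -0.05 to 0.50, adjusted p = 0.157), PNPLA2 (0.25, adjusted p = 0.0547), PPARGC1B (0.34, 0.0638) and ACADS (0.34, 0.0999) did not pass the test. That of PPARGC1B was called without DMSO replicate 1 (0.48, adjusted p = 0.000413) and with no filter (0.00942). That of PNPLA2 was called with RLE size factors (0.0484), by DESeq2 (0.0491), with no filter (0.0114) and without DMSO replicate 2 (0.0445) or 3 (0.0097).

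The other 9 interaction calls depended on a library or the scale. CPT1A (0.43, adjusted p = 0.0178) lost its call without ABT199 replicate 1 (adjusted p = 0.0559) or combination replicate 1 (0.0566) or 3 (0.052). ACSL4 (-0.29) lost it without ABT199 replicate 1 (0.0554), ERKi replicate 2 (0.0694) or combination replicate 1 (0.0607). ACAD10 (0.27) lost it without ABT199 replicate 2 (0.0791), ERKi replicate 2 (0.0642) or combination replicate 1 (0.0506) or 2 (0.0758). DECR1 (-0.20) lost it without ABT199 replicate 1 (0.0609) or ERKi replicate 1 (0.0543), and ETFB (0.36) without combination replicate 3 (0.0597). ETFA (0.18) lost it without ABT199 replicate 3 (0.0748), ERKi replicate 3 (0.0771) or combination replicate 2 (0.0638) or 3 (0.0828). PPARD (-0.29) lost it without DMSO replicate 2 (0.065), ABT199 replicate 1 (0.0551) or 3 (0.0782), ERKi replicate 1 (0.0726) or combination replicate 1 (0.0631). ACAA1 (0.26) lost it without DMSO replicate 1 (0.0501) or 3 (0.0692), ABT199 replicate 2 (0.0957) or 3 (0.0622), ERKi replicate 3 (0.09) or combination replicate 1 (0.0665), 2 (0.0795) or 3 (0.0779). CPT2 (0.29) kept its call without each library and was at 0.18 with total counts as the scale (0.0703).

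**Figure D4:**
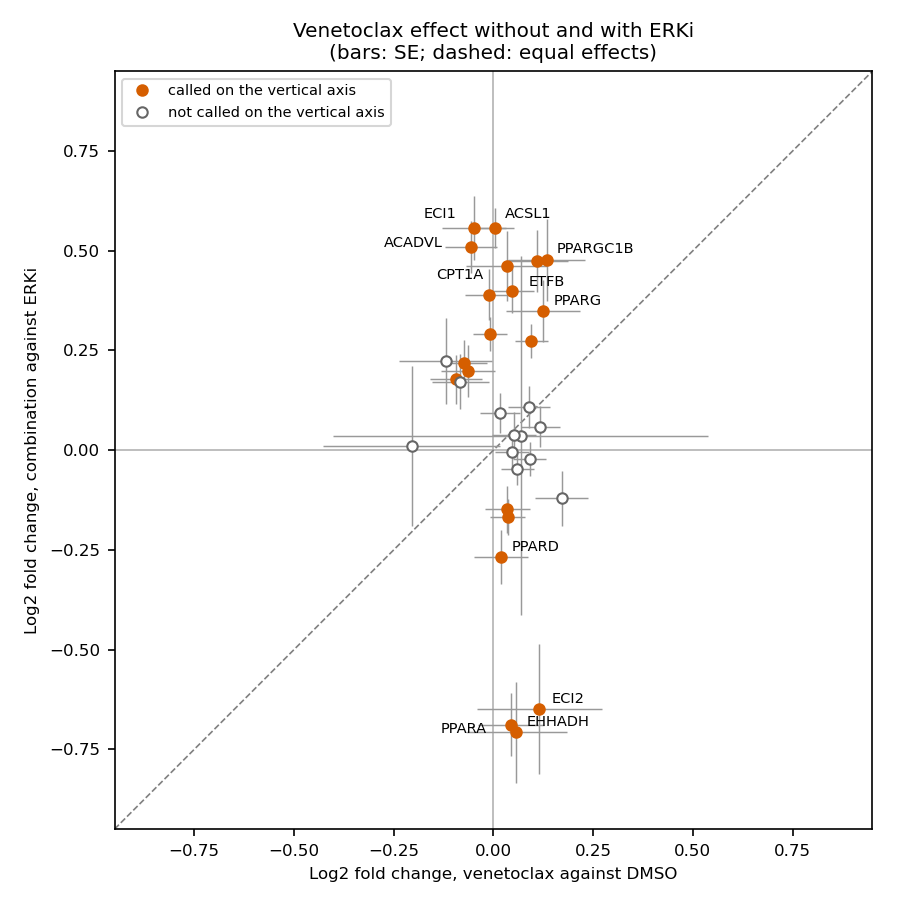
Log2 fold change of venetoclax without ERKi (horizontal) and with it (vertical) for the 32 genes, with SE bars; the dashed line marks equal effects and filled points are called on the vertical axis. On the horizontal axis the genes run from -0.21 to 0.17, and on the vertical axis from EHHADH at -0.71 and PPARA at -0.69 to ECI1 and ACSL1 at 0.56.

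Other genes of the same pathways, taken from 6 companion lists, were measured in the same fit. Their counts with ERKi, for all 6 lists, are read beside 34.5% of all genes higher and 35.2% lower, and their medians beside 0.01 for all genes. Of 18 known PPAR target genes 11 passed the filter, and with ERKi 5 of them rose and 2 fell, with a median of 0.02. PDK4, the kinase that shuts off pyruvate oxidation in favour of fat, was at 2.13, 1.601 and 2.28 CPM with DMSO, 34.3, 35.9 and 35.3 with ERKi and 27.4, 26.5 and 27.6 with the combination. Its libraries with ERKi lay far above those without (log2 fold change 4.13, SE 0.111, adjusted p = 1.15e-14). CD36, the fatty acid importer and monocyte surface protein, was at 109, 112 and 111 with DMSO, 357, 359 and 345 with ERKi and 167, 179 and 174 with the combination. Like PPARA it was highest with ERKi alone, and it fell by 1.03 from ERKi to the combination (SE 0.0421, adjusted p = 4.36e-11). LPL, the lipase that frees fatty acids from lipoproteins, was at 4.88, 4.99 and 4.74 with DMSO, 9.001, 8.08 and 8.38 with ERKi and 31.1, 30.1 and 28.9 with the combination. It was highest with the combination, with a step of 1.82 over ERKi (SE 0.0869, adjusted p = 2.52e-10). TXNIP, an inhibitor of glucose uptake, rose by 0.58 in the same step.

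Of 19 partners and coregulators of the PPARs 16 passed the filter, and with ERKi 10 rose and 3 fell, with a median of 0.38. The coactivators NCOA3 (1.38, adjusted p = 4.44e-10) and NCOA2 (0.95) rose, and PPRC1, a relative of PPARGC1B, fell 2.01-fold (adjusted p = 2.48e-10). From ERKi to the combination NCOA3 fell by 0.62, while PPRC1 rose by 0.70 and NRF1, a factor of mitochondrial genes, by 0.44.

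Of 14 other mitochondrial fatty acid oxidation genes 13 passed the filter, and 6 rose and 4 fell with ERKi (median 0.31). ACSF2, an acyl-CoA synthetase, rose by 1.95 (SE 0.0892, adjusted p = 5.74e-12). SLC25A20, the carrier that moves acylcarnitines between CPT1A and CPT2, was at 14.9, 12.5 and 13.99 CPM with DMSO, 27.2, 28.8 and 28.6 with ERKi and 32.3, 31.5 and 31.5 with the combination. It rose with ERKi by 1.03 (SE 0.0721, adjusted p = 1.3e-09), the same direction as CPT1A and not that of CPT2. HSD17B10, a hydroxyacyl dehydrogenase, fell by 0.77 with ERKi and rose by 0.67 from ERKi to the combination.

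Of 13 peroxisomal genes 12 passed the filter, and 6 rose and 5 fell with ERKi (median 0.10). ABCD2, a transporter of very long chains into the peroxisome, fell by 0.66 with ERKi. From ERKi to the combination CROT, the peroxisomal carnitine octanoyltransferase, fell by 0.61 and the isomerase ECH1 rose by 0.58. The largest called step of these genes was that of DECR2, the peroxisomal dienoyl-CoA reductase, from 1, 4 and 3 counts with ERKi to 10, 34 and 11 with the combination (log2 fold change 2.90, 95% interval 1.02 to 4.78, adjusted p = 0.0072); without combination replicate 2 it was 2.06 and not called (0.0702). AMACR and DECR2 were called with ERKi too (0.94 and -2.07), at under 2 CPM in all 12 libraries. Without DMSO replicate 1 DECR2 was at -0.59 (adjusted p = 0.577) and AMACR at 0.97 (0.0637), and neither was called. DECR2 also lost its call without ERKi replicate 1 (0.131), 2 (0.0586) or 3 (0.0841), and AMACR without DMSO replicate 3 (0.57, 0.176) or ERKi replicate 1 (0.0579), 2 (0.112) or 3 (0.0527). With ABT199 alone against DMSO, DECR2 was lower too, at -2.37, and was called only with no filter (adjusted p = 0.0339).

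Of 14 fatty acid uptake genes 10 passed, and 4 rose and 4 fell with ERKi (median 0.04). FABP5, a fatty acid binding protein, was at 141, 127 and 123 CPM with DMSO, 41.7, 40.1 and 43.4 with ERKi and 63.7, 64.6 and 63.3 with the combination. Libraries with ERKi were the lower ones, and FABP5 fell by 1.64 with ERKi (SE 0.0564, adjusted p = 1.84e-13). SLC27A3, a fatty acid transport protein, rose by 2.13 at 0.242 to 2.59 CPM.

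Of 16 lipid droplet genes 14 passed, and 6 rose and 4 fell with ERKi (median 0.05). G0S2, the inhibitor of the PNPLA2 lipase, was at 34.2, 25.8 and 31.8 CPM with DMSO, 29.6, 32.7 and 31.3 with ABT199, 3.79, 5.496 and 4.704 with ERKi and 7.69, 9.59 and 9.38 with the combination. It was lowest with ERKi alone (log2 fold change -2.71, SE 0.131, adjusted p = 1.15e-11) and higher by 0.93 with the combination, while PNPLA2 itself was higher in both groups with ERKi. PLIN5, the droplet protein that tethers droplets to mitochondria, was at 0.483, 0.424 and 0.474 with DMSO, 3.03, 4.896 and 4.01 with ERKi and 2.28, 1.68 and 2.36 with the combination. It rose by 3.10 with ERKi (SE 0.262, adjusted p = 1.61e-08) and fell by 0.92 from ERKi to the combination. PLIN4, another droplet coat protein, rose by 2.11 with ERKi, and DGAT2, which makes triglyceride, rose by 0.83 from ERKi to the combination (adjusted p = 4.12e-06).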

How the data were processed

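Per the labels, poly(A) RNA of OCI-AML3 cells was sequenced as paired ends. The authors' deposited table holds raw read counts; the submitters' processing notes name HISAT2, HTSeq, DESeq2 and the build hg38. The sources used here give no versions, annotation or strand setting, so overlapping genes may share reads. The table holds 54628 symbols, and 0 rows name no gene.

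Counts were analysed with edgeR 4.0.16 (R 4.3.3): filterByExpr (minimum count 10, minimum total 15) left 15173 genes, scaled by TMM factors, which take most genes as unchanged. One quasi-likelihood fit of all 12 libraries (1 coefficient per group, 8 residual degrees of freedom) gave every comparison, with Benjamini-Hochberg adjustment over all genes tested. The SE is the log2 fold change over the square root of F, the prior count was 0.125, and 95% intervals rest on SE and residual degrees of freedom. The common biological coefficient of variation was 0.0727. Totals of 19199296 to 21275065 leave genes under 1 CPM with few counts; intervals cover the spread between libraries only.

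The genes, lists and tests were chosen with earlier results of these data known. Values in every library are given for genes with a called change of at least 2-fold between 2 groups and for 6 fixed genes (CPT1A, CPT2, PPARA, PPARD, PPARGC1B, PNPLA2); from each companion list up to 3 genes with the largest called change with ERKi, and up to 3 from ERKi to the combination, are named. Alternatives were RLE size factors, total counts, DESeq2 1.42.0, limma-voom (limma 3.58.1), leaving each library out in turn, fitting only the libraries compared, a replicate block, no filter on low counts, and keeping genes with CPM 1 in 3 libraries. The pipeline was tested on simulated data. Exon lengths and gene positions are from GENCODE 29 (GRCh38), promoters from RefSeq (GRCh38.p14). Figures were drawn with matplotlib 3.10.9.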

Additional observations from a re-analysis of the deposited data

Results flagged for a closer look

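For 18 of the 32 genes the effect of venetoclax with ERKi differed from that without it, by the test of the interaction in the edgeR fit (adjusted p under 0.05). On the log2 scale, the difference was positive for ECI1 (0.61), ACADVL (0.57), ACSL1 (0.55), CPT1A (0.43), ACAD9 (0.40), ETFB (0.36), ECHS1 (0.35), HADHA (0.30), CPT2 (0.29), ACAD10 (0.27), ACAA1 (0.26) and ETFA (0.18). It was negative for EHHADH (-0.76), ECI2 (-0.76), PPARA (-0.73), ACSL4 (-0.29), PPARD (-0.29) and DECR1 (-0.20). Over all genes tested 21.3% were called positive and 18% negative. The libraries whose omission ended the call of 8 of these genes are named with the interaction above.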

How the results depend on the processing

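Over all alternatives and the 6 comparisons, the 32 genes gave 2838 values, of which 2720 kept direction and side of the threshold, 87 lost the call, 31 gained one and 0 called values reversed. With total counts as the scale, genes called lower in the combination against ERKi were 10 instead of 6, and the interaction gave 6 higher instead of 12 and 10 lower instead of 6; this scale moves the median of all genes. With each library left out in turn, the interaction gave 3 to 7 genes lower, with 3 without ABT199 replicate 1 and 4 without ERKi replicate 1 or combination replicate 1, and 8 to 13 higher (8 without combination replicate 3). With a replicate block the counts of genes called were 12 higher and 15 lower for ERKi against DMSO, as without it, and 15 higher and 6 lower for the combination against ERKi, where PNPLA2 gained a call (adjusted p = 0.0455). The correlation of deviations between same-numbered libraries was low, -0.0736 to 0.0936 over 18 pairs, against -0.091 to 0.0664 over 36 pairs of other numbers. Among DMSO, ABT199 and ERKi, however, same-numbered pairs were positive except DMSO with ERKi replicate 1 (-0.0111). The highest was ABT199 with ERKi replicate 2 (0.0936). Whether replicate numbers mark a weak shared factor was not tested. With no filter the combination against ERKi gave 15 higher and 4 lower and the interaction 14 higher and 4 lower. Calls of DECR1 were lost with no filter in the combination against ERKi (0.0801) and in the interaction (0.163), those of HADH with RLE size factors (0.0655), DESeq2 (0.0989) and no filter (0.213), and in the interaction those of PPARD (0.0547) and ACAA1 (0.0508) with DESeq2. With total counts as the scale the interaction calls of CPT1A (0.067), ETFA (0.328), ETFB (0.0624), ACAD10 (0.155) and ACAA1 (0.195) were lost; the cause was not tested. Values that kept the call but moved by over 1.5 times on this scale were, with ERKi, HSD17B4 (-0.12), HADHA (0.21) and PPARD (0.25), in the combination against ERKi HADHA (0.17), HADH (-0.27), DECR1 (-0.29), ETFA (0.15) and PPARG (0.23), and in the interaction HADHA (0.19) and DECR1 (-0.31). ACSL5 gained a call in ERKi against DMSO without DMSO replicate 1 (-0.12, adjusted p = 0.0244). Depth limits CPT1B, SLC22A5, AMACR and DECR2, and CPT1C, ACAD11 and PPARGC1A could not be tested.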
